A study of Mus musculus with 2 samples.

Results

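Hepatic stellate cells that combined high levels of Grid1, Inmt, Ano1 and Sdk2 were examined in 2 single-cell RNA libraries of mouse liver. Each cell was scored by the mean of log1p(count per 10000 UMIs) over these 4 genes, a UMI being a molecule counted once by its tag. The members were chosen by these measured levels, as the top 10% of stellate cells by the score within each library. They numbered 1493 of 14929 stellate cells, 809 of 8092 in the p16-LRTD library and 684 of 6837 in the p16-Alb-LRTD library, out of 19955 barcodes in all. A stellate cell here is a barcode with a mitochondrial share of at most 5%, 2000 to 7000 genes, at most 50000 UMIs, and at least 15 UMIs per 10000 from Lrat, Ecm1, Hgf and Reln together.

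Both libraries came from stellate cells of male C57BL/6 mice, obtained by pronase and collagenase perfusion and a Nycodenz density gradient. All mice received CCl4 for 4 weeks, which injures hepatocytes around the central vein and causes fibrosis, together with tamoxifen and diphtheria toxin. p16-LRTD mice carry p16-CreERT2 and the R26-CAG-LSL-RSR-tdTomato-2A-DTR allele, in which tdTomato and the diphtheria toxin receptor lie behind a lox and a rox stop. p16-Alb-LRTD mice carry Alb-DreERT2 as well, so that in these mice alone hepatocytes with active p16 could lose both stops and be killed by the toxin. The p16-LRTD mice are the controls, and they too carry the Cre and the reporter allele and received the toxin. The study raises, as a speculation, that the receptor may be expressed to some extent through an incomplete lox stop. The number and the age of the mice behind each library are not given in the sources used here.

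There was 1 library per genotype, so no difference between genotypes has a replicate check, and cells of a library are not replicates. The intervals given are 95% intervals that cover counting error only, and are exact except for differences of log2 ratios. The libraries held 11149 and 8806 barcodes in their deposited tables, and members had a median of 19533 UMIs in p16-LRTD and 17078 in p16-Alb-LRTD, against 16921 and 18418 in the other stellate cells. Members were thus the deeper cells in p16-LRTD and the shallower ones in p16-Alb-LRTD. The libraries shared 95 barcode sequences, and 0 barcodes were members in both. Levels are pooled counts per 1000000 UMIs (CPM), from the UMIs summed over a group of cells.

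Hepatic stellate cells lie between hepatocytes and the sinusoidal endothelium. In the resting liver they store vitamin A in lipid droplets and secrete growth factors, and after injury they become the main source of fibrillar collagen. They differ along the axis of the liver lobule, with different genes marking cells near the portal vein and near the central vein. The rule genes come from unrelated families. Grid1 encodes GluD1, a delta-type glutamate receptor subunit known from synapses. Inmt encodes an N-methyltransferase that acts on indolamines and other amines. Ano1 encodes a calcium-activated chloride channel, and Sdk2 encodes sidekick-2, an adhesion molecule of the immunoglobulin superfamily.

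The rule used the 4 genes, so their levels describe the selection and are no finding. Grid1 (ENSMUSG00000041078, chr14:34820108-35583379 of GRCm38, plus strand) stood at 258 CPM in p16-LRTD members and 27.0 in the other stellate cells, and at 346 and 52.5 CPM in p16-Alb-LRTD. Inmt (ENSMUSG00000003477, chr6:55170626-55175043, minus strand) stood at 185 against 30.9 CPM and at 516 against 82.1 CPM. Ano1 (ENSMUSG00000031075, chr7:144588549-144751974, minus strand) stood at 377 against 88.5 CPM and at 383 against 109 CPM. Members were thus separated most by Grid1 and Inmt, while Ano1 and Sdk2 were also common in cells below the cut. Sdk2 (ENSMUSG00000041592, chr11:113776374-114067046, minus strand) stood at 185 against 43.4 CPM and at 204 against 59.3 CPM. All 4 genes had a UMI in 559 of 809 p16-LRTD members and in 576 of 684 p16-Alb-LRTD members, against 4.50% and 13.7% of the other cells.

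The upstream sequences of the rule genes are shown because the 4 genes were chosen for being high together. The table of RefSeq starts used here (GRCm38.p6) held 3 of the 4, Inmt, Ano1 and Sdk2. Each line gives the 190 bases from 250 to 61 bases before that start, 5′ to 3′ on the gene's own strand, a stretch outside every annotated exon of the gene. For Ano1 the GENCODE annotation also holds transcripts that begin farther upstream. Capitals mark TATAAA (the TATA box) and GGGCGG (the GC box) on either strand.
Inmt, chr6:55175051-55175240, minus strand: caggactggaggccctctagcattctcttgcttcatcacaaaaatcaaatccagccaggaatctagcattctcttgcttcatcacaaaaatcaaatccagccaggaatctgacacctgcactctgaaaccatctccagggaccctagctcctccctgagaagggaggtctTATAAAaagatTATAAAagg
Ano1, chr7:144738634-144738823, minus strand: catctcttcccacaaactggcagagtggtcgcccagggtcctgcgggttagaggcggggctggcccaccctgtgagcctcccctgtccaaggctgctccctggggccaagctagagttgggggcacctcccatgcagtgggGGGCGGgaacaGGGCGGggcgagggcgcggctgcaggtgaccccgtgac
Sdk2, chr11:114067090-114067279, minus strand: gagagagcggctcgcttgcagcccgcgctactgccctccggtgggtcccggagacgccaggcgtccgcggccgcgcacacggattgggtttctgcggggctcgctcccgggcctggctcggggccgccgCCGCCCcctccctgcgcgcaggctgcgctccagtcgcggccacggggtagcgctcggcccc

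The stretches differed in composition. That of Inmt held 2 TATAAA matches and was 45.3% G and C, that of Ano1 held 2 GGGCGG matches at 70% G and C, and that of Sdk2 held 1 GGGCGG match at 78.4%. Of all 32851 stretches of this length in the table, 8.73% held TATAAA and 22.8% held GGGCGG, and the median content of G and C was 51.6%. The motifs do not overlap each other, and a match is a description of the sequence and not a site of binding.

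The cut fell among cells of nearly equal score. In p16-LRTD the lowest member scored 0.868362 and the highest cell outside 0.868117, and in p16-Alb-LRTD these were 1.16359 and 1.16326. Within 0.05 of the cut lay 117 members and 146 other cells in p16-LRTD, and 113 and 130 in p16-Alb-LRTD. A score of 0 was found in 33.1% and 20.3% of the other cells. The members are a range of a score, and a cut at a fixed share does not show whether they form a cell type. The cut lay higher in p16-Alb-LRTD, and with 1 common cut over both libraries (a score of 1.02657) 454 of 8092 p16-LRTD stellate cells and 1039 of 6837 p16-Alb-LRTD stellate cells lay above it, 5.61% (5.12 to 6.13) and 15.2% (14.4 to 16.1). With every cell thinned to 5000 UMIs the shares were 7.06% and 15.8%. Over all stellate cells Inmt was at 47.8 and 123 CPM, Grid1 at 52.4 and 80.3, Ano1 at 120 and 135, and Sdk2 at 58.9 and 73.0. Since these shares use the rule's own genes they are given with no test. Between members of the 2 libraries Grid1 had a log2 ratio of 0.43 (p16-Alb-LRTD over p16-LRTD), and of -0.08 where members were taken above the common cut.

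The 4 genes were chosen for being high together, so their joint pattern is a description. When a gene was left out of the score and the top 10% taken on the other 3, the gene left out was still higher in the top cells than in the rest. Grid1 was then at 166 against 38.6 CPM in p16-LRTD and at 219 against 66.2 CPM in p16-Alb-LRTD. Over the 4 genes the log2 ratio ranged from 1.52 to 2.10 in p16-LRTD and from 1.28 to 1.73 in p16-Alb-LRTD. Across cells of a library the pairwise correlation of the genes' log levels was 0.32 to 0.45, and 0.17 to 0.29 after thinning to 5000 UMIs, over cells that share a library and differ in depth.

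**Figure D1:**
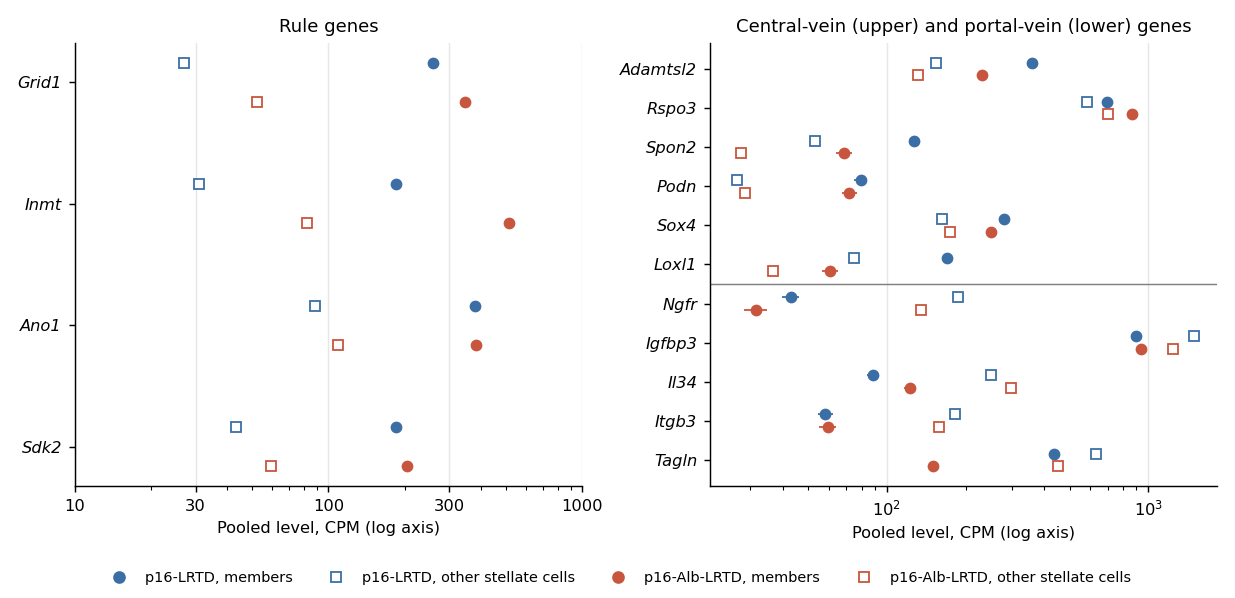
Pooled levels in CPM (log axis) of the 4 rule genes (left) and of the genes of the central-vein and portal-vein stellate lists (right), in members (filled) and other stellate cells (open) of each library, with 95% counting intervals. The 6 central-vein genes were higher and the 5 portal-vein genes lower in members of both libraries, as with Ngfr at 42.9 against 187 CPM in p16-LRTD.

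The members had the markers of stellate cells. The 10 stellate markers that neither the score nor the gate used were all detected in members of both libraries, and their summed level had a median of 257 and 322 per 10000 UMIs over cells, against 296 and 311 in the other cells. Dcn, the proteoglycan decorin, made up most of this sum at 17773 and 24194 CPM. Within the list, the collectins Colec11 and Colec10 were lower in members, at 1714 against 3359 CPM and 565 against 1115 CPM in p16-LRTD. Lhx2, a transcription factor that keeps stellate cells quiescent, was slightly higher at 499 against 387 CPM.

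Markers of other cell types were scarce in members, apart from Wt1 and Dpt. Median summed levels over cells of the endothelial, Kupffer, lymphocyte, portal fibroblast, mesothelial, smooth muscle and pericyte, biliary and hepatocyte lists lay between 0 and 0.634 per 10000 in both libraries. The mesothelial sum of 125 CPM in p16-LRTD members was almost wholly Wt1 at 123 CPM, and in p16-Alb-LRTD it was 79.3 CPM with Wt1 at 79.0, while Msln was at 0 there. The portal fibroblast sum of 170 CPM in p16-LRTD members was mostly Dpt at 141 CPM, with Pi16 at 0 in members of both libraries. The endothelial list was lower in members than in other cells, at a sum of 90.0 against 292 CPM and of 104 against 324 CPM. Barcodes rich in endothelial genes (445 and 301) carried Grid1 at 2.02 and 2.52 CPM and Inmt at 1.71 and 3.20 CPM.

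Away from the genes of the rule, members formed a neighbourhood of their own in part. In principal components of 2000 variable genes, with the rule and gate genes left out, members made up 41.0% of the 30 nearest neighbours of a member in p16-LRTD and 35.3% in p16-Alb-LRTD. Around the other cells they made up 6.63% and 7.33%, and over all cells 10.0%. At least 15 of the 30 neighbours were members for 311 p16-LRTD members and 170 p16-Alb-LRTD members, and 13 and 6 members had no member among their neighbours.

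Which genes outside the rule set members apart was asked next, with each library on its own. Genes at 50 CPM or more in the higher group of both libraries numbered 3514. Of these, 26 were higher in members by 2-fold or more in both libraries (0.74%) and 29 were lower (0.825%). Counted in 1 library at a time, 64 genes were higher (1.71%) and 67 lower (1.79%) of 3739 in p16-LRTD, and 34 (0.919%) and 43 (1.16%) of 3701 in p16-Alb-LRTD. The genes called in 1 library and measured in both had the same direction in the other (100%), 56 of 56 and 30 of 30 among higher genes and 51 of 51 and 39 of 39 among lower ones. Of all 3514 genes, 86.1% had the same direction in both. The libraries do not share cells, but they share the rule that chose the members.

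The genes with the largest excess in members were of several kinds, and no theme over them was tested. Some were also high in stellate cells rich in Alcam and Svep1, as given further on. Scube1, a secreted and membrane-bound protein with CUB and EGF-like domains, was at 110 against 30.7 CPM in p16-LRTD and at 130 against 44.0 CPM in p16-Alb-LRTD, log2 ratios of 1.84 (1.76 to 1.93) and 1.56 (1.48 to 1.64). Plxna4, a receptor for semaphorins, was at 263 against 61.7 CPM and at 237 against 84.9 CPM, ratios of 2.09 (2.04 to 2.15) and 1.48 (1.42 to 1.54). Plxna4 is not particular to stellate cells, since the endothelial barcodes of the same libraries held it at 140 and 202 CPM. Among matrix proteins, Svep1, a large adhesion protein, was at 65.5 against 17.6 CPM and at 65.1 against 25.5 CPM. Sned1, an extracellular matrix glycoprotein, was at 83.5 against 27.3 CPM and at 103 against 41.0 CPM.

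Adamtsl1, a secreted protein related to the ADAMTS proteases but without their catalytic part, was at 85.8 against 26.2 CPM and at 73.2 against 25.5 CPM. Adamts5, an aggrecanase, was at 374 against 136 CPM and at 412 against 176 CPM. Htra3, a secreted serine protease, was at 226 against 83.3 CPM and at 143 against 57.7 CPM. These genes were higher in members whether their overall level was lower in p16-Alb-LRTD, as for Htra3, or not. Podn, a small leucine-rich proteoglycan, was at 79.4 against 26.6 CPM and at 71.9 against 28.7 CPM. Frem1, a basement membrane protein, was at 76.8 against 32.5 CPM and at 59.9 against 24.6 CPM.

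The others were Thsd7a, Kcnt2, Pcdh9, Spon2 and Aff3, with log2 ratios between 1.26 and 1.61 in p16-LRTD and between 1.24 and 1.45 in p16-Alb-LRTD. Kcnt2 encodes a sodium-activated potassium channel, Pcdh9 a protocadherin, and Aff3 a nuclear protein of the AF4 family. Pcdh9 was at 343 against 143 CPM in p16-LRTD and at 558 against 204 CPM in p16-Alb-LRTD.

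The genes with the largest deficit in members included a cell adhesion gene, a chemokine and genes of contractile or perivascular cells. Lsamp, a neuronal adhesion molecule, was at 70.4 against 903 CPM in p16-LRTD and at 54.4 against 467 CPM in p16-Alb-LRTD, log2 ratios of -3.68 (-3.77 to -3.60) and -3.10 (-3.21 to -2.99). A UMI of Lsamp was seen in 22.4% of p16-LRTD members and 73.0% of the other cells (12.8% and 64.8% at 5000 UMIs a cell). Ccl2, a chemokine that attracts monocytes, was at 30.2 against 275 CPM and at 48.9 against 359 CPM. Both were among the larger deficits, and Clstn2, a gene of the pericyte-like score given further on, was at 5.15 against 138 CPM in p16-LRTD.

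Myh11, smooth muscle myosin heavy chain, was at 25.2 against 166 CPM and at 10.8 against 80.1 CPM. Rgs4, a regulator of G-protein signalling found in pericytes, was at 27.6 against 110 CPM and at 12.5 against 55.7 CPM. Ngfr, the low-affinity nerve growth factor receptor, was at 42.9 against 187 CPM and at 31.6 against 135 CPM. These 3 genes had nearly the same log2 ratio in both libraries. For Mest, an imprinted gene, the ratio was -3.06 (-3.22 to -2.90) in p16-LRTD and -1.73 (-1.93 to -1.53) in p16-Alb-LRTD, since the other cells held 166 and 55.9 CPM while members held 19.97 and 16.9 CPM.

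The potassium channel gene Kcnq5 behaved likewise, with ratios of -2.44 and -1.47. The endothelial scavenger receptor Stab2, the endothelial adhesion gene Esam and the antisense transcript Gm6277 completed the set at ratios of -2.19 and -1.65, -1.84 and -1.45, and -1.72 and -1.53, in that order. The endothelial list was lower in members as given above. Without cells holding 15 or more UMIs per 10000 of another type's markers, the ratio of Stab2 was -0.12 in p16-LRTD and -0.07 in p16-Alb-LRTD, so its 2-fold deficit was lost, while that of Esam was -1.77 and -1.38.

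**Figure D2:**
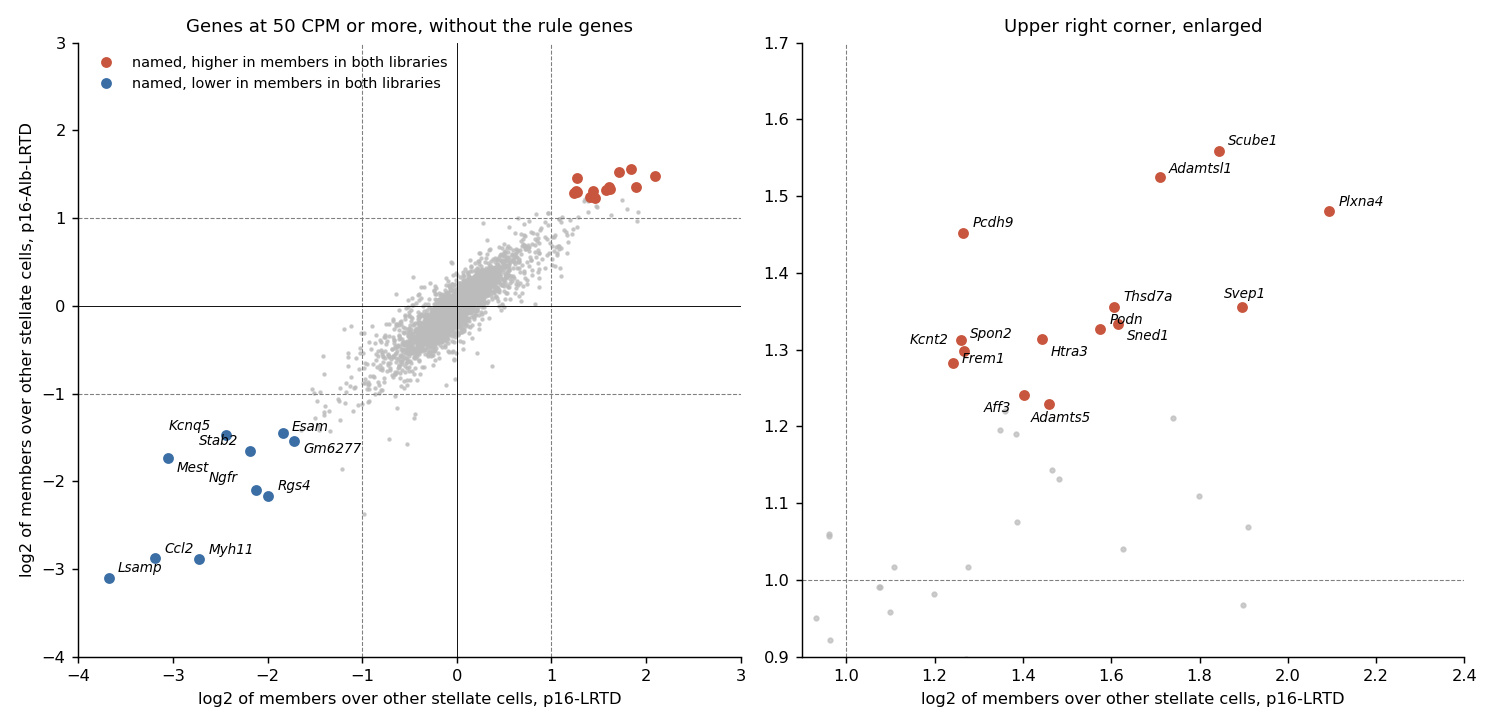
The log2 ratio of members over other stellate cells in p16-LRTD (horizontal axis) and p16-Alb-LRTD (vertical axis) for genes at 50 CPM or more, without the rule genes, with an enlarged corner on the right. Dashed lines mark 2-fold, red points the 14 named higher genes and blue points the 10 named lower genes, of which Lsamp lies farthest out at -3.68 and -3.10.

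The position of the cells along the lobule was addressed with lists of genes known from stellate cells near the central vein and near the portal vein. All 6 central-vein genes were higher in members than in the other stellate cells together, in both libraries. Their median log2 ratio was 1.20 in p16-LRTD and 0.77 in p16-Alb-LRTD. All 5 portal-vein genes were lower, with medians of -1.50 and -1.41. The lists were read at a lower minimum of 5 CPM, where the median over all genes was -0.02 in each library. Of 10137 genes in p16-LRTD, 46% were higher by any amount and 54% lower, and 1.61% and 2.39% by 2-fold or more. Of 9965 genes in p16-Alb-LRTD, 46.5% were higher and 53.5% lower, and 0.803% and 1.85% by 2-fold or more. By 2-fold or more, 4 central-vein genes were higher in p16-LRTD and 2 in p16-Alb-LRTD, and 3 and 4 portal-vein genes were lower.

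Adamtsl2, a microfibril-associated protein, was at 359 against 155 CPM in p16-LRTD and at 232 against 131 CPM in p16-Alb-LRTD. A UMI of Adamtsl2 was seen in 97.3% of p16-LRTD members and 59.1% of the other cells, and in 74.8% and 36.9% after thinning to 5000 UMIs. In the endothelial barcodes of that library, with a median of 11897 UMIs, the share was 2.25% (0.70% after thinning). In the Kupffer barcodes, with 20326.5 UMIs, it was 8.02% (2.82% after thinning). Adamtsl2 was therefore present in nearly all members and in a majority of the other stellate cells. Spon2, a secreted matrix protein, was at 127 against 52.9 CPM and at 68.5 against 27.6 CPM. Rspo3, the R-spondin that strengthens Wnt signalling around the central vein, differed least, at 694 against 583 CPM and at 868 against 700 CPM. Groups cut by other scores, given further on, lay on both sides of the members. Rspo3 was at 870 and 919 CPM by Galnt14, Hhip and Cdh18, and at 835 and 871 by Tgfbi, Fcna and G0s2. It was at 458 and 555 CPM by Alcam and Svep1, and at 266 and 421 by Notch3 and Clstn2. Its excess thus held only against the other cells together.

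Loxl1, which crosslinks elastin, and the transcription factor gene Sox4 lay between, with log2 ratios of 1.18 and 0.78 in p16-LRTD and 0.73 and 0.53 in p16-Alb-LRTD. Among the portal-vein genes, Itgb3, an integrin subunit, was at 58.1 against 183 CPM and at 59.4 against 158 CPM. Il34, a ligand of the CSF1 receptor, was at 88.5 against 250 CPM and at 123 against 298 CPM. Igfbp3 was at 895 against 1494 CPM and at 937 against 1241 CPM, the smallest deficit of the list in p16-Alb-LRTD. Tagln, a smooth muscle gene, was at 436 against 628 CPM in p16-LRTD and at 151 against 450 CPM in p16-Alb-LRTD.

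Several of these genes, with Scube1 and Lsamp, changed over the whole range of the score and not only at the cut. From p16-LRTD cells with a score of 0 to the members in the upper part of the score, in 7 bins, Adamtsl2 went from 42.7 to 364 CPM, Podn from 7.6 to 86.5 CPM and Scube1 from 4.7 to 116 CPM, each higher in every next bin. Lsamp went from 1695 to 61.9 CPM, Ngfr from 305 to 39.8 CPM and Itgb3 from 269 to 53.8 CPM, each lower in every next bin. In p16-Alb-LRTD the same 6 genes were ordered likewise, Podn with a step of 61.5 to 61.9 CPM at the cut, and with Adamtsl2 from 64.0 to 239 CPM and Lsamp from 998 to 47.0 CPM. The highest-scoring cells below the cut already held Adamtsl2 at 305 and 203 CPM. Rspo3 was less regular, going from 456 to 724 CPM in p16-LRTD with 672 CPM just below the cut and 666 just above it, and from 514 to 858 CPM in p16-Alb-LRTD with 785 and 877 CPM on the 2 sides. Median depth over the bins ran from 14187 to 20162 UMIs in p16-LRTD, lowest at a score of 0, and from 17010 to 19743 in p16-Alb-LRTD, lowest in the upper members. The part of depth in the order was not tested.

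**Figure D3:**
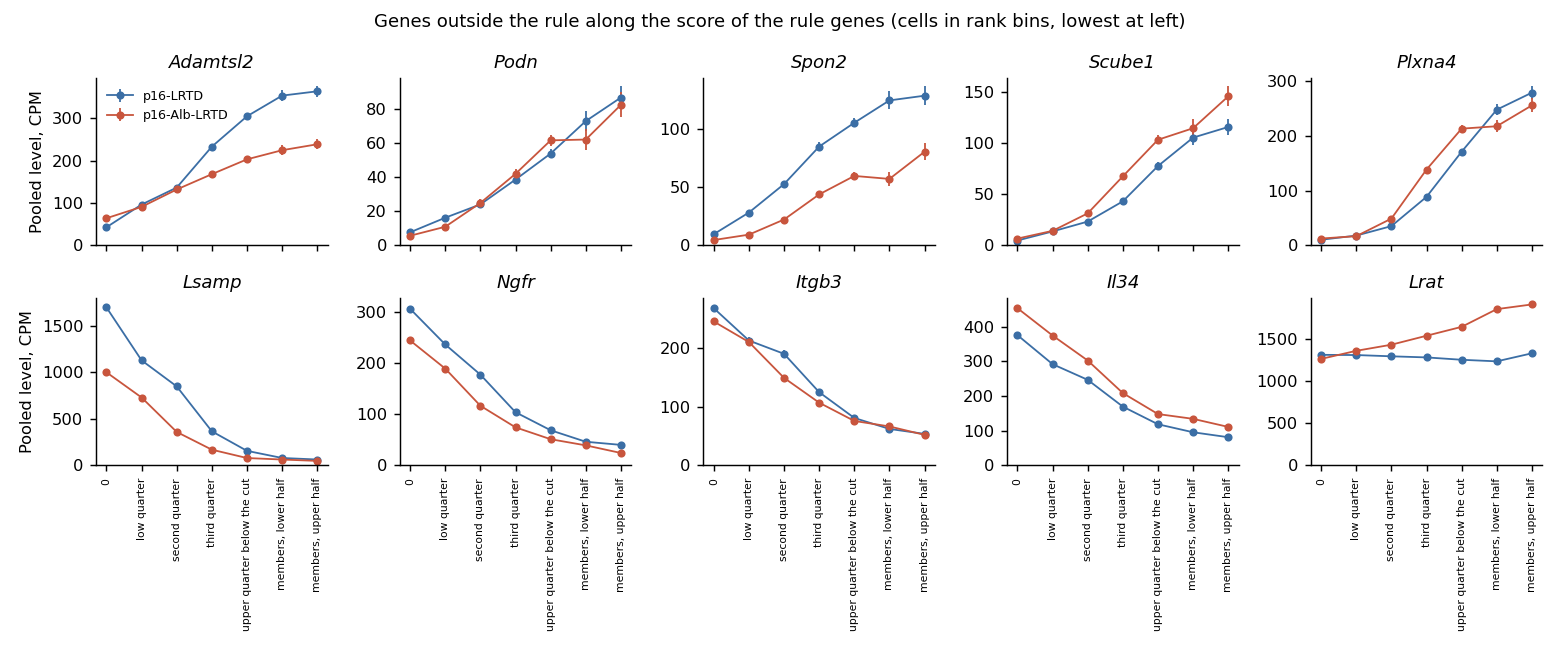
Pooled CPM (vertical axes, from 0) of 9 genes outside the rule and of the gate gene Lrat in 7 bins of stellate cells ordered by score, from cells with a score of 0 at the left to the upper members at the right, with 95% counting intervals. Adamtsl2, Podn, Spon2, Scube1 and Plxna4 were higher toward the members and Lsamp, Ngfr, Itgb3 and Il34 lower, with Lsamp going from 1695 to 61.9 CPM in p16-LRTD, and Spon2 in p16-Alb-LRTD dipped at the cut from 59.6 to 57.1 CPM.

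Genes of the resting state were mostly lower in members, and those of the activated state went both ways. Of 9 measured quiescence genes outside the rule, 2 were higher and 7 lower in p16-LRTD members, with a median log2 ratio of -0.76, and 1 was higher and 8 lower in p16-Alb-LRTD, with a median of -0.51. Pth1r, the parathyroid hormone receptor, was at 185 against 506 CPM and at 179 against 353 CPM. Vipr1, a receptor for vasoactive intestinal peptide, was at 372 against 829 CPM and at 508 against 815 CPM. Bambi, a pseudoreceptor that dampens TGF-beta signalling, was higher at 401 against 263 CPM and at 388 against 263 CPM.

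The activation list was split in members. In p16-LRTD 7 of 12 genes were higher and 5 lower with a median of 0.53, and in p16-Alb-LRTD 6 were higher and 6 lower with a median of -0.12, whose sign turned with the choice of members (0.02 for the top 20%, 0.05 with Inmt left out of the score). Col1a1 was at 3628 against 1693 CPM in p16-LRTD (log2 ratio 1.10, 1.09 to 1.11) and at 598 against 474 CPM in p16-Alb-LRTD (0.34, 0.30 to 0.37). Col3a1 was at 6679 against 3662 CPM and at 1593 against 1276 CPM. Fibrillar collagen was thus higher in members than in all other cells together, by more in p16-LRTD. Members did not stand out in this way from the highest-scoring cells below the cut. In p16-LRTD, Col1a1 was at 3520 CPM in those cells and at 3829 and 3412 CPM in the lower and upper members. In p16-Alb-LRTD it was at 799 CPM in those cells and at 607 and 589 CPM in the lower and upper members. Tnc, the matrix protein tenascin C, was higher in both as well, at 90.2 against 50.3 CPM and at 86.1 against 41.6 CPM.

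Contractile genes went the other way. Acta2, smooth muscle actin, was at 24.1 against 47.5 CPM in p16-LRTD and at 1.3 against 13.6 CPM in p16-Alb-LRTD, and Myl9 was at 70.0 against 128 CPM and at 45.9 against 92.1 CPM. Of the contractile list, 3 of 14 measured genes were higher and 11 lower in p16-LRTD, and 5 of 13 were higher and 8 lower in p16-Alb-LRTD, with medians of -0.47 and -0.49. The smooth muscle and pericyte list had medians of -1.99 and -2.06. Both lists were thus lower at the median in members of both libraries.

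Other matrix genes were mixed. Of the basement membrane and matrix list, 7 of 18 measured genes were higher and 11 lower in p16-LRTD members, and 6 of 17 were higher and 11 lower in p16-Alb-LRTD. Eln, which encodes elastin, was at 124 against 45.0 CPM and at 125 against 56.7 CPM. Lum, the proteoglycan lumican, was at 1588 against 794 CPM and at 1039 against 605 CPM. The basement membrane collagen Col4a1 was at 858 against 1355 CPM and at 472 against 959 CPM. Elastin and lumican were thus higher and type IV collagen lower in members of both libraries.

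Retinoid genes, which belong to the vitamin A store of stellate cells, also showed 2 directions. Rarb, a retinoic acid receptor that is itself induced by retinoic acid, was at 443 against 228 CPM and at 445 against 213 CPM. Dhrs3, a retinaldehyde reductase that retinoic acid likewise induces, was at 211 against 108 CPM and at 377 against 181 CPM. Plin2, a coat protein of lipid droplets, was at 210 against 357 CPM and at 189 against 269 CPM. Over the list, 5 of 9 measured genes were higher in p16-LRTD and 3 of 8 in p16-Alb-LRTD, with medians of 0.02 and -0.12.

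Inflammatory genes were low in members of both libraries, and cycling genes in members of p16-LRTD. In p16-LRTD all 8 measured proliferation genes were lower, with a median log2 ratio of -2.88, as for Top2a at 3.9 against 28.0 CPM. In p16-Alb-LRTD only Cdk1 of that list reached the minimum, at 18.95 against 15.98 CPM, slightly higher in members. Inflammatory genes had a median of -0.62 in each library, with 8 of 9 and 8 of 8 measured genes lower. The chemokine Cxcl10 was at 28.2 against 74.7 CPM and at 91.1 against 212 CPM. The dissociation stress list differed little, with medians of 0.08 and 0.00.

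Relatives of the rule genes did not share the pattern as families. Of 28 synaptic adhesion genes, 11 were measured in p16-LRTD with 4 higher and 7 lower, and 10 in p16-Alb-LRTD with 4 higher and 6 lower. Sdk1, the closest relative of Sdk2, was at 6.43 against 6.32 CPM and at 3.29 against 2.20 CPM. Cadm3, a cell adhesion molecule of synapses, was at 44.4 against 112 CPM and at 37.8 against 101 CPM. Ano4 was the 1 anoctamin that was higher by 2-fold in p16-LRTD members, at 123 against 43.3 CPM, and it was at 42.2 against 21.3 CPM in p16-Alb-LRTD (log2 ratio 0.99, 0.85 to 1.13). Of 15 other ionotropic glutamate receptor genes 3 reached the minimum, of which 2 were higher and 1 lower in members of each library. Grin2b, an NMDA receptor subunit, was at 9.43 against 22.4 CPM in p16-LRTD and at 8.11 against 13.3 CPM in p16-Alb-LRTD, and Grik4, a kainate receptor subunit, was at 77.1 against 61.8 CPM and 110 against 73.4 CPM.

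The study asks about signalling through the receptor LIFR, so its axis was read in members. Lifr was at 322 against 593 CPM in p16-LRTD and at 284 against 493 CPM in p16-Alb-LRTD, log2 ratios of -0.88 (-0.92 to -0.84) and -0.79 (-0.84 to -0.75). Its partner Il6st (gp130) was at 423 against 545 CPM and at 456 against 536 CPM. Steap4, a metalloreductase that STAT3 can induce, was at 541 against 1029 CPM and at 530 against 1024 CPM, whereas Socs3 was at 344 against 307 CPM and at 511 against 493 CPM. Over the 14 genes the medians were -0.16 and -0.17, against -0.02 over all genes, and no gene of the axis differed by 2-fold.

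Members were not uniform, and of 4 other scores compared, the one of Alcam and Svep1 overlapped with them most. The top 10% of stellate cells by a score of these 2 genes held 261 of the 809 p16-LRTD members, 32.3% (29.0 to 35.6), and 150 of the 684 p16-Alb-LRTD members, 21.9% (18.9 to 25.2), where 10.0% of all stellate cells belong to that group. Groups cut in the same way from Galnt14, Hhip and Cdh18 held 4.45% and 9.06% of members, and from Tgfbi, Fcna and G0s2 6.80% and 4.97%. A group cut from Notch3 and Clstn2, genes of pericyte-like cells, held 0 of 809 p16-LRTD members (upper limit 0.455%) and 3 of 684 p16-Alb-LRTD members, 0.439%.

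Collagen, Plxna4 and Wt1 differed more between members inside and outside the Alcam Svep1 group than the rule genes did. In p16-LRTD, Grid1 was at 252 CPM inside and 261 outside, Inmt at 146 and 204 CPM, Ano1 at 403 and 364 CPM, and Sdk2 at 218 and 168 CPM. Adamtsl2 was at 385 and 346 CPM. Col1a1 was at 6254 CPM inside and 2339 outside, Plxna4 at 571 and 112 CPM, and Wt1, a transcription factor gene of mesothelial and activated stellate cells, at 317 and 28.2 CPM. The levels of these 3 genes were thus higher in the members that also scored high for Alcam and Svep1. In p16-Alb-LRTD, Grid1 was at 320 and 354 CPM, Inmt at 414 and 545 CPM, Ano1 at 360 and 390 CPM, and Sdk2 at 278 and 183 CPM, while Col1a1 was at 1264 and 407 CPM, Plxna4 at 504 and 160 CPM, and Wt1 at 273 and 23.4 CPM.

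Members outside the Alcam Svep1 group had more of other genes. Fcna, which encodes ficolin A, was at 758 CPM outside and 181 inside in p16-LRTD, and at 1219 and 501 CPM in p16-Alb-LRTD. Hhip, an inhibitor of hedgehog ligands, was at 120 CPM outside and 15.6 inside, and at 214 and 53.3 CPM. Cells of the Alcam Svep1 group that were not members held Col1a1 at 7155 and 2012 CPM, at least as high as the members inside it, and Grid1 at 64.2 and 94.8 CPM. Several traits of members were as marked or more so in those cells, though not all of them in both libraries. They held Scube1 at 133 and 189 CPM, Plxna4 at 451 and 554 CPM, and Svep1, a gene of that score, at 170 and 251 CPM. Lsamp was at 74.7 and 40.7 CPM there, Ngfr at 42.0 and 44.1 CPM, Itgb3 at 31.6 and 21.9 CPM, Il34 at 63.1 and 79.3 CPM, and Adamtsl2 at 362 and 199 CPM. The excess of these genes, and the deficit of the others, was therefore not particular to members. With the Alcam Svep1 group left out altogether, a choice made after seeing the data, the median of the central-vein list was 1.29 in p16-LRTD and 0.83 in p16-Alb-LRTD.

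**Figure D4:**
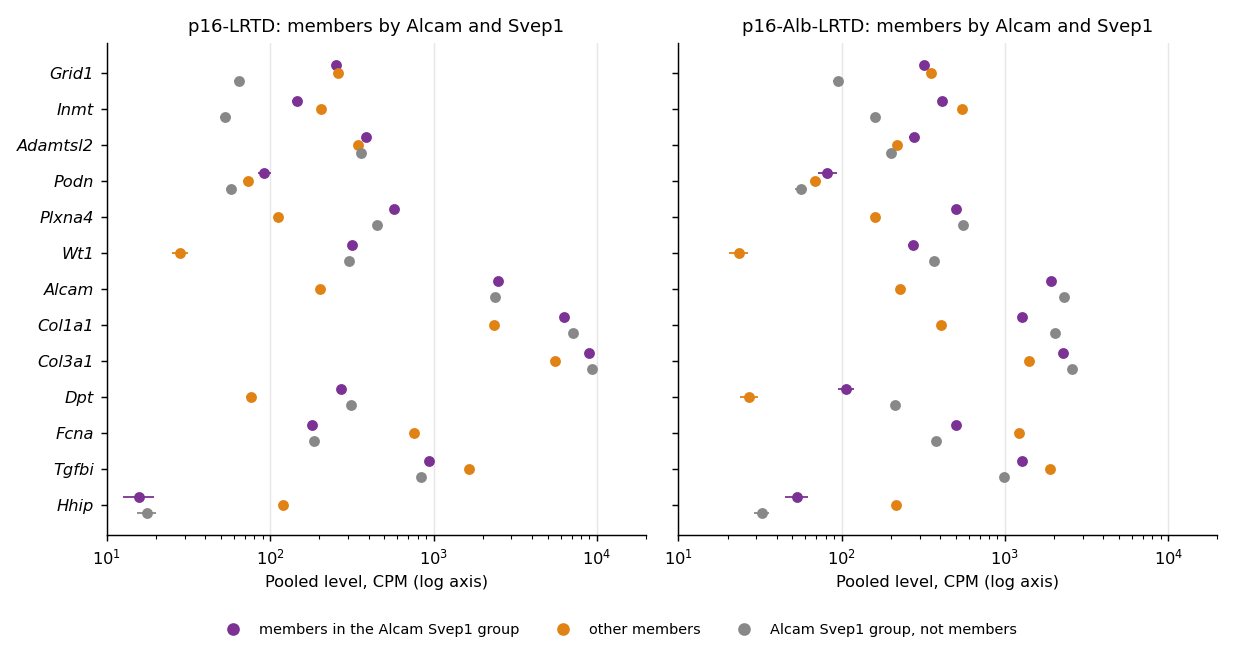
Pooled CPM (log axis) of 13 genes in members inside the Alcam Svep1 group (purple), members outside it (orange) and cells of that group that were not members (grey), in p16-LRTD (left) and p16-Alb-LRTD (right), with 95% counting intervals. Grid1 was at 252 and 261 CPM in the 2 kinds of member in p16-LRTD, while Wt1 was at 317 and 28.2 CPM.

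The comparison of genotypes asks how the loss of p16-high hepatocytes relates to these cells, and rests on 1 library each. Of 3678 genes at 50 CPM or more in members, 54 were higher in p16-Alb-LRTD by 2-fold or more (1.47%) and 30 lower (0.816%). In the other stellate cells these were 41 (1.11%) and 21 (0.566%) of 3709. The largest ratios in members were found in the other cells too. Zbtb16, a transcription factor gene that glucocorticoids can induce, was at 72.3 CPM in p16-LRTD members and 727 in p16-Alb-LRTD members, and at 57.3 and 637 CPM in the other cells. Ly6a, the surface protein Sca-1, was at 83.4 and 460 CPM in members and at 75.9 and 408 CPM in the others.

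Among the other genes higher in p16-Alb-LRTD members, Fkbp5, a glucocorticoid-induced chaperone partner, was at 51.3 and 218 CPM and the interferon-inducible Ifi206 at 12.1 and 50.2 CPM. Slco2b1, a carrier of organic anions, was at 96.5 and 313 CPM, and the AMP deaminase gene Ampd3 at 38.7 and 125 CPM. Cxcl10 and the procollagen peptidase gene Adamts3 were at 28.2 and 91.1 CPM and at 22.4 and 71.6 CPM. All 12 glucocorticoid targets were higher in p16-Alb-LRTD members, with a median log2 ratio of 0.82 against 1.10 in the other cells, and all 12 interferon genes, with 1.18 against 1.02. The dissociation stress list was higher as well, with medians of 0.58 in members and 0.54 in the others, and its part in these ratios was not tested. Over all genes at 5 CPM or more the medians were -0.04 in members and -0.05 in the others. Of 10041 genes in members, 44.4% were higher by any amount and 55.6% lower, and 1.21% and 1.39% by 2-fold or more, where 9 interferon and 4 glucocorticoid genes passed 2-fold. Of 10063 genes in the other cells, 39.7% were higher and 60.3% lower, and 0.964% and 1.01% by 2-fold or more.

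Collagen and its companions on the activation list stood lower in the p16-Alb-LRTD library. All 12 genes of the list were lower in p16-Alb-LRTD members, 9 of them by 2-fold or more, with a median log2 ratio of -1.55, and all 12 were lower in the other cells, with a median of -0.99. Col1a1 was at 3628 CPM in p16-LRTD members and 598 in p16-Alb-LRTD members, a ratio of -2.60 (-2.64 to -2.57), against 1693 and 474 CPM in the other cells, a ratio of -1.84. Over single cells the median Col1a1 level was 20.7 per 10000 UMIs in p16-LRTD members and 3.69 in p16-Alb-LRTD members, so the typical member differed too. Col1a2 was at 3806 and 1122 CPM in members, and S100a6, a calcium-binding protein of activated cells, at 177 and 19.8 CPM. Timp1, an inhibitor of metalloproteinases, was at 62.1 and 13.5 CPM, and Dpt, the matrix protein dermatopontin, at 141 and 45.0 CPM. Lgals1, which encodes galectin-1, was at 583 and 191 CPM.

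The gap in collagen was present on both sides of the division by Alcam and Svep1. Col1a1 had a log2 ratio of -2.31 (-2.36 to -2.26) in members inside that group and -2.52 (-2.57 to -2.47) in members outside it, and -1.83 (-1.85 to -1.81) in cells of the group that were not members. The smaller share of members inside the group in p16-Alb-LRTD, 21.9% against 32.3%, therefore stood beside a lower level within each kind of member.

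Genes were then picked for a genotype ratio that differed between members and other cells, with a counting interval that left out 0. The intervals given here thus describe the choice. How many genes met this limit was not counted. Ccnd1, which encodes cyclin D1, was at 68.1 and 27.4 CPM in members and at 135 and 142 CPM in the others, a difference in log2 ratio of -1.38 (-1.56 to -1.21). Ncam1, a neural adhesion molecule, had a difference of -1.07 (-1.34 to -0.81), at 64.8 and 11.9 CPM in members. Fblim1, an adaptor of focal adhesions, Clmp, a junctional adhesion gene, and Tagln had differences of -1.06, -1.06 and -1.05. In all 5 the genotype ratio was below 0 in members and lower than in the other cells together. For Tagln it was -1.53 in members and -1.42 in Alcam Svep1 cells that were not members, so its fall was not particular to members. The other genes of this set were not read in those cells.

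Among genes at 50 CPM or more in members of a library, the largest differences in the other direction were those of Itih4, Cxcl14, Angptl6, Hhip and Ptch1. Mest and Kcnq5, below that level in members, had larger ones of 1.33 and 0.97. Itih4, a secreted inhibitor-family protein, was at 41.9 and 55.0 CPM in members and at 96.0 and 65.9 CPM in the others, a difference of 0.94 (0.78 to 1.09). Angptl6, an angiopoietin-like protein, was at 322 and 545 CPM in members and at 859 and 813 CPM in the others, and the chemokine gene Cxcl14 was at 53.0 and 101 CPM in members and at 115 and 118 CPM in the others. Hhip was at 85.5 and 178 CPM in members, and Ptch1, the hedgehog receptor, at 43.9 and 56.2 CPM, with differences of 0.79 and 0.78. The genotype log2 ratio of Hhip was 1.06 in members and 0.89 in Alcam Svep1 cells that were not members. Since the cut was set within each library and lay higher in p16-Alb-LRTD, members of the 2 libraries were not chosen at the same level of the rule genes.

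**Figure D5:**
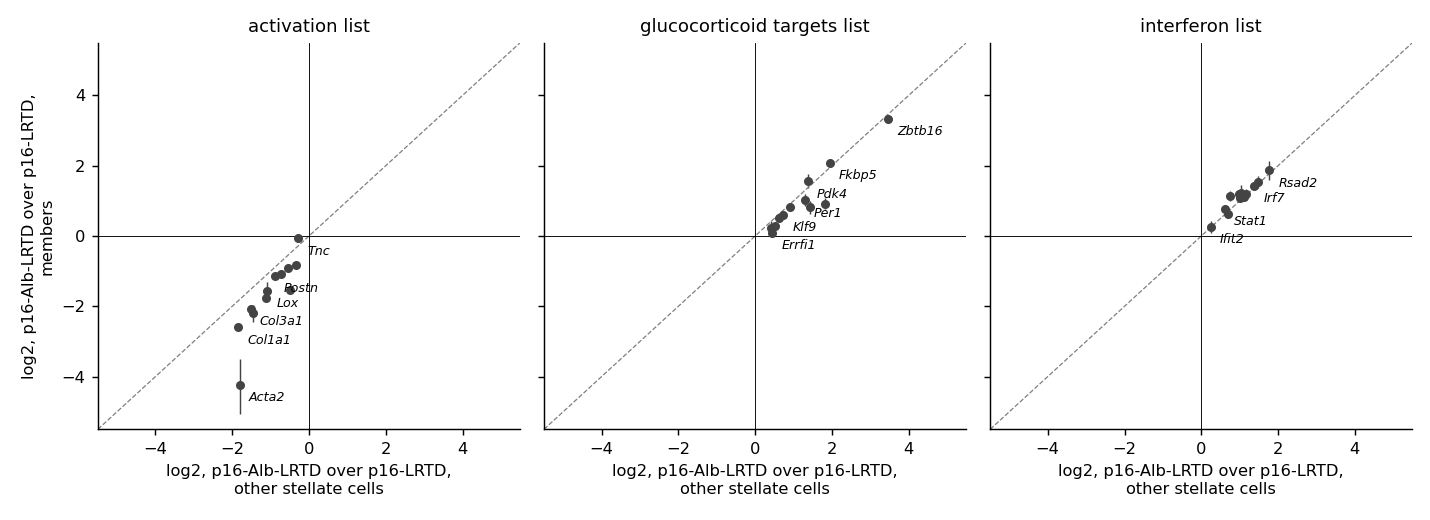
The log2 ratio of p16-Alb-LRTD over p16-LRTD in other stellate cells (horizontal axis) and in members (vertical axis) for the activation, glucocorticoid target and interferon lists (genes at 5 CPM or more on average), with 95% counting intervals, some genes labelled and the diagonal dashed. Activation genes lie below 0 on both axes, as Col1a1 at -1.84 and -2.60, and the other 2 lists above 0.

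The locus that drives the study's recombinase was scarcely detected in these cells. Cdkn2a, the locus of p16, was at 5.88 CPM in p16-LRTD members and 6.42 in the other cells, and at 4.50 and 4.72 CPM in p16-Alb-LRTD. The counting intervals of members and others overlapped in both libraries.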

How the data were processed

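Single-cell libraries (10x Genomics 3′ v3.1) of stellate cells from 1 p16-LRTD and 1 p16-Alb-LRTD preparation were used. The authors made the deposited counts, raw UMI counts per gene and barcode, with Cell Ranger 7.0.1 and mm10, per the submitters' processing notes. Whether intronic reads were counted is not given in the sources used here, and counts are not corrected for free RNA, which can place UMIs of a gene in cells that do not express it. The files held 193746596 and 162219167 UMIs. No doublet caller was run, and doublets were limited through the upper bounds on genes (7000) and UMIs (50000).

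The members and the gene lists were chosen with earlier results of these data known. UMIs were summed over members and over the other stellate cells of each library and divided by the group's total. Intervals are exact Poisson intervals for levels and exact conditional (Clopper-Pearson) intervals for ratios and shares, at 95%, and cover counting error only. Those for differences of log2 ratios are normal approximations from the same counts. With 1 library per genotype the genotypes could not be tested against each other, and no p-values were computed. Genes were compared at 50 CPM or more in the higher group and lists at 5 CPM on average. The named genes were the rule genes, the 14 largest rises and 10 largest falls in members, ranked by the smaller log2 ratio of the 2 libraries, the 8 largest and 8 smallest genotype ratios in members, the 5 largest differences of that ratio from the other cells in each direction among genes at 50 CPM or more in members of a library, and genes of the lists. Mitochondrial, ribosomal protein, haemoglobin, hepatocyte-list and sex-linked marker genes were left out of the ranking. Wt1 and Cdkn2a levels, and the genes shown inside and outside the Alcam Svep1 group, were picked after their values were seen. Nearest neighbours (30) were found in 30 principal components of 2000 variable genes. Cells were thinned to 5000 UMIs where this is stated, and the other shares of cells are without thinning. The reference barcodes carried at least 15 UMIs per 10000 of endothelial or of Kupffer genes and fell below the stellate limit. The code for ratios and intervals was run on simulated Poisson counts at the pooled levels. These had no variation between cells or libraries, so the run checks the calculation and not the spread in real data. Python 3.11.15, numpy 2.4.6, scipy 1.17.1, pandas 2.3.3, scikit-learn 1.9.0 and matplotlib 3.10.9 were used. Alternatives varied the score, the share taken, the limits, the scaling, the minimum level and the neighbour settings. Upstream sequence came from RefSeq, and Grid1 had no entry in the table used.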

Additional observations from a re-analysis of the deposited data

Results flagged for a closer look

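Only the named genes and the genes of the lists were searched here. Among them, 4 had opposite directions in the 2 libraries for the difference between members and other stellate cells. Each differed by at least 0.2 on the log2 scale, with counting intervals that leave out 0. Of all 3514 genes at 50 CPM or more, 86.1% had the same direction by any amount. The log2 ratio of members over others was 0.66 in p16-LRTD and -0.26 in p16-Alb-LRTD for Angptl4, a secreted inhibitor of lipoprotein lipase. For Fblim1 it was 0.37 and -0.69. For Timp1 it was 0.23 and -0.52. For Hhip it was -0.46 and 0.32. In the same search, 3 genes had a genotype ratio (p16-Alb-LRTD over p16-LRTD) of opposite direction in members and in the other stellate cells. It was 0.39 and -0.54 for Itih4, 0.36 and -0.61 for Kcnq5, and 0.36 and -0.42 for Ptch1. None of these differences was tested over samples, since there was 1 library per genotype.

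The reporter transcript tdTomato, which no comparison used, was seen in members. It stood at 5.94 CPM in p16-Alb-LRTD members (74 UMIs, 4.67 to 7.46) and at 3.37 CPM in p16-LRTD members (55 UMIs, 2.54 to 4.39), and in the other stellate cells at 5.78 and 3.04 CPM. In the same order of libraries, endothelial barcodes held 4.80 and 2.33 CPM and Kupffer barcodes 5.20 and 1.56 CPM. This low level was thus not particular to stellate cells. The counting intervals of members and other cells overlapped in each library.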

How the results depend on the processing

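No paired analysis was possible because there was 1 library per genotype. The number of genes past 2-fold followed the minimum level. At 20 CPM, 42 genes were higher and 63 lower in members, and 76 were lower between genotypes within members. With at least 10 UMIs these were 214, 697 and 800, and 489 were higher between genotypes. More genes are measured at a lower minimum, each on fewer UMIs. The share of members around members moved with the number and choice of members. It was 26.4% and 23.1% (p16-LRTD and p16-Alb-LRTD) for the top 5%, 57.6% and 52.6% for the top 20%, 32.4% and 29.2% with the score on thinned counts, and 28.9% and 44.4% with 1 cut over both libraries. With Grid1, Inmt, Ano1 or Sdk2 left out of the score it was 37.3% and 32.4%, 41.8% and 33.2%, 36.6% and 33.4%, and 36.8% and 32.6%. In p16-LRTD it was 41.7% with the stellate limit at 25 per 10000, 39.5% in cells with 10000 to 30000 UMIs, 40.1% without cells holding markers of other types and 41.9% with 4000 variable genes. It was 38.5% there without the Alcam Svep1 group, an alternative chosen after seeing the data. In p16-Alb-LRTD it was 36.8% with 15 neighbours. With 1 cut over both libraries the genotype median of the activation list in members was -1.23.

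Directions turned in 3 cases, and the cause was not tested. The activation list median of p16-Alb-LRTD members over others was 0.0224 for the top 20% and 0.0476 with Inmt left out of the score. The Grid1 genotype ratio in members was -0.0835 with 1 cut over both libraries. Without cells holding markers of other types, the ratio of Stab2 in members over others was -0.12 and -0.07, while it reached -4.49 in p16-LRTD with 1 cut over both libraries and -5.38 in p16-Alb-LRTD for the top 5%. In p16-Alb-LRTD, Svep1 ranged from 0.90 (Sdk2 left out of the score) to 2.14 (without the Alcam Svep1 group) and Wt1 from 0.67 to 1.81 with the same 2 choices. Ccl2 in p16-LRTD ranged from -3.78 (top 5%) to -2.39 (thinned score), and with 1 cut over both libraries the genotype ratios of Ccnd1 and Cxcl10 in members were -0.73 and 2.36. The other ratios and list medians that were recomputed kept their direction under the alternatives run. Single cells of low depth limit shares of cells with a UMI, and 1 library per genotype limits every genotype ratio.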

Other observations

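Further groups of genes were read in members. Of 20 measured genes for secreted niche factors, 7 were higher and 13 lower in p16-LRTD members and 10 were higher and 10 lower in p16-Alb-LRTD members, with median log2 ratios of -0.22 and -0.10. Interferon genes were lower in members than in other cells, 11 of 12 in p16-LRTD and 10 of 12 in p16-Alb-LRTD, with medians of -0.37 and -0.26 and no gene past 2-fold. Of 10 measured methyl transfer genes, the group of Inmt by reaction, 7 and 4 were higher, with medians of 0.10 and -0.04 and no gene past 2-fold. Glucocorticoid targets had medians of 0.49 and 0.09, with 9 and 6 of 12 genes higher.

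Among the 8 genes with the largest genotype ratios in members, Ampd3 was also 2-fold or more higher in members than in other cells of both libraries, at log2 ratios of 1.18 and 1.16, and Cxcl10 was 2-fold or more lower, at -1.40 and -1.22. Mest had a genotype log2 ratio of -0.24 (-0.50 to 0.01) in members and -1.57 (-1.61 to -1.53) in the other stellate cells.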
